A study of Mus musculus with 32 samples.

Results

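The complement genes described here were 9 genes chosen by symbol, namely the C1q chain genes C1qa, C1qb and C1qc, the components C3, Cfb and Cfp, the inhibitor Serping1 and the anaphylatoxin receptors C3ar1 and C5ar1. Each named gene had 1 probe per table. Experiment 1 named 8 of the 9 among 15967 named genes, and experiment 2 named 7 among 16593. No probe was named C3 in either table, nor Cfp in experiment 2, in the annotation used here, so those values are not reported. The cells were macrophages grown from bone marrow in L-cell conditioned medium, a source of macrophage colony-stimulating factor. All donor mice lacked ApoE, were of the DBA/2 or AKR background, ate chow and were 16 weeks old. Loaded dishes received acetylated LDL (AcLDL), a modified lipoprotein that macrophages take up through scavenger receptors, for 24 h, and unloaded dishes received none. Experiment 1 used cells labelled female and 100 µg/ml AcLDL, and experiment 2 used cells labelled male and 50 µg/ml. The paper lists the Y-linked gene Eif2s3y among transcripts higher in unloaded DBA/2 than unloaded AKR cells of experiment 2. Whether sex differed between the strains there was not tested. Each experiment held 4 arrays each of DBA/2 loaded, DBA/2 unloaded, AKR loaded and AKR unloaded cells, 32 arrays in all. Sex, dose, AcLDL preparation and array version changed together between the experiments and cannot be told apart, and ApoE was absent from every group. Whether the 4 dishes of a group were grown from different animals is not stated in the labels or methods, so p-values measure the spread between dishes. By the methods each chip held 2 loaded and 2 unloaded samples of each strain. The labels do not name the chip and the main fits had no term for it, so this spread includes differences between chips. Whether the replicate number, used as a block in an alternative fit, follows the chip is not stated.

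Complement is a cascade of plasma and tissue proteins that tags particles and dying cells for uptake. C1q, built from the A, B and C chains, recognises targets in the classical pathway, and C2 with C4 forms that pathway's C3-cleaving enzyme, while factor B (Cfb) does so in the alternative pathway, which properdin (Cfp) stabilises. Macrophages are a main source of C1q, and they carry the receptors for the released fragments C3a and C5a.

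Values are log2 probe values that the authors quantile-normalized within each experiment, so levels are not set across experiments or between probes. A probe was tested if at least 1 group mean exceeded the table's median value (5.98 in experiment 1, 4.29 in experiment 2). By that limit 7 members were tested in experiment 1, all but Serping1, and 6 in experiment 2, all but C3ar1. limma fitted strain, loading and their interaction over the 16 arrays of an experiment, and a call is a Benjamini-Hochberg adjusted p under 0.01 over all tested probes. Differences are DBA/2 minus AKR or loaded minus unloaded, with the standard error. In experiment 2, 2 arrays stood apart from their labels. The array labelled AKR unloaded replicate 1 correlated at 0.966 with the other AKR unloaded arrays and at 0.986 with the AKR loaded ones, and the array labelled AKR loaded replicate 2 at 0.968 with its own group and 0.985 with AKR unloaded. The other 30 arrays correlated best with their own group. Member results of experiment 2 are therefore given by the labels and also without these doubted arrays, a choice made with the values in view. These arrays were picked because they resembled the other AKR group, so leaving them out favours larger AKR loading differences and a smaller spread. The p-values without them are not independent of that choice. For complement genes outside the 9, experiment 2 values are by the labels unless said otherwise, so their AKR groups include the doubted arrays. The 6 macrophage markers named in each table lay above the median in every group. Their summed linear level was 38508 to 39716 in DBA/2 loaded, 38297 to 40825 in DBA/2 unloaded, 30439 to 31838 in AKR loaded and 38232 to 41342 in AKR unloaded cells of experiment 1. Neutrophil markers summed to 1553 to 2148 in DBA/2 loaded, 777 to 809 in DBA/2 unloaded, 922 to 998 in AKR loaded and 831 to 982 in AKR unloaded cells, with 6 or 7 of the 9 at or below the median. Stromal markers summed to 550 to 629 in DBA/2 loaded, 388 to 447 in DBA/2 unloaded, 309 to 326 in AKR loaded and 292 to 313 in AKR unloaded cells, with 4 to 6 of the 6 at or below the median. In experiment 2, by the labels, macrophage markers summed to 25912 to 28437 in DBA/2 loaded, 27968 to 29530 in DBA/2 unloaded, 20004 to 23621 in AKR loaded and 21270 to 24248 in AKR unloaded cells. Neutrophil markers there summed to 335 to 397 in DBA/2 loaded, 330 to 363 in DBA/2 unloaded, 578 to 1178 in AKR loaded and 736 to 928 in AKR unloaded cells, and stromal markers to 82 to 182 over all groups. Both experiments thus had higher macrophage marker sums in loaded DBA/2 than in loaded AKR cells, without overlap. The part of these markers in the results was not tested. In these bulk samples fewer cells and less RNA per cell cannot be told apart.

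In experiment 1 the C1q chains, Cfb and C5ar1 were lower in unloaded DBA/2 than in unloaded AKR macrophages, and they fell in AKR cells given AcLDL. Of 7 members tested, 5 were called lower in unloaded DBA/2 cells, beside 14.8% of all 13339 probes called lower. The median difference of the members was -0.70 log2, against -0.01 over all probes. Loading of AKR cells lowered 5 of 7 members, with 15% of probes called lower and a median of -1.01 for the members against 0.00 for all probes. Loading of DBA/2 cells lowered 2 of 7, C1qa and C5ar1, with 6.32% of probes called lower. In loaded cells 3 members were higher in DBA/2, where 13.8% of probes were, and C1qb was lower, where 15% of probes were. The interaction, the loading response of DBA/2 minus that of AKR cells, was called positive for 5 of 7 members, with 7.1% of probes called positive. These comparisons share their groups of arrays, so they do not count as independent of each other.

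Experiment 2 by the labels called 1 member of 6, Cfb, lower with loading in DBA/2 cells, beside 3.84% of its 13732 probes. limma called 0 of 6 members between strains in unloaded cells (9.9% of probes called in either direction), 0 in loaded cells (12.1%), 0 for loading in AKR cells (0%) and 0 for the interaction (0.816%). At an unadjusted p under 0.05 those counts were 2, 1, 1 and 1 of 6. Of all 13732 probes, 3892, 4462, 1877 and 2099 had a p that low in the same comparisons. Without the doubted arrays, 4 of 6 members fell with loading in AKR cells (9.19% of 13911 probes called lower), and 4 of 6 fell in DBA/2 cells (8.71%). All 4 in each strain were the C1q chains and Cfb. The C1q chains were also higher in loaded DBA/2 than in loaded AKR cells, 3 of 6 members beside 9.23% of probes. limma called 0 members between the unloaded strains (14% of probes in either direction) and 0 for the interaction (5.11%), with 3 and 1 at an unadjusted p under 0.05. Of all 13911 probes, 4586 and 3302 had a p that low in these comparisons.

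**Figure D1:**
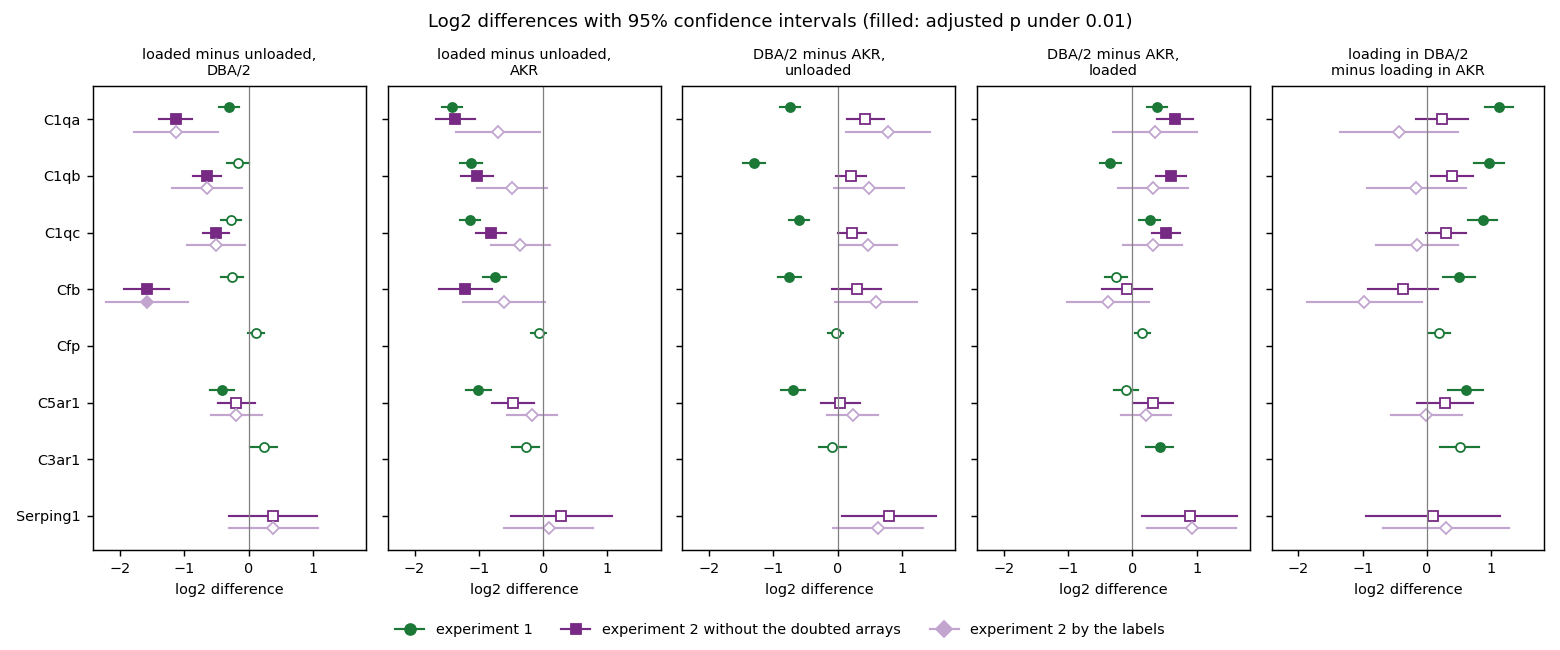
Log2 differences (x axes) of the 8 named members (rows) in 5 comparisons (panels), with 95% confidence intervals from limma, for experiment 1, experiment 2 without the 2 doubted arrays and experiment 2 by the labels. Filled symbols have an adjusted p under 0.01: in experiment 1 the C1q chains, Cfb and C5ar1 lie below 0 for loading in AKR cells and for the strain difference in unloaded cells, and above 0 for the interaction.

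The genes of the C1q chains lie side by side on chromosome 4, within 18719 bases (GRCm38.p6). C1qb spans chr4:136880126-136886200, C1qc chr4:136889801-136892936 and C1qa chr4:136895916-136898844. Promoters are shown because these neighbouring genes fell together with loading of AKR cells. RefSeq promoter windows matched 6 members, C1qb, C1qc, C3, C3ar1, C5ar1 and Cfp. The 250 bases before the start used by that promoter table are printed for C1qb (minus strand, chr4:136886201-136886450) and C1qc (minus strand, chr4:136892915-136893164), 5′ to 3′ in the gene's direction. The start used for C1qc lies inside the gene's annotated span, so the last 22 printed bases belong to that span. Capitals mark GAGGAA on either strand, a core bound by PU.1, a transcription factor that myeloid cells depend on.
C1qb: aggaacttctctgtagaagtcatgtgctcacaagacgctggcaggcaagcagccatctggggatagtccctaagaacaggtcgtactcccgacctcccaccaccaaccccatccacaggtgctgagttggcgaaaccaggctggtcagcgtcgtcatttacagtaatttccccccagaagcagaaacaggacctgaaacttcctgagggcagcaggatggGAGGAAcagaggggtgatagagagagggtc
C1qc: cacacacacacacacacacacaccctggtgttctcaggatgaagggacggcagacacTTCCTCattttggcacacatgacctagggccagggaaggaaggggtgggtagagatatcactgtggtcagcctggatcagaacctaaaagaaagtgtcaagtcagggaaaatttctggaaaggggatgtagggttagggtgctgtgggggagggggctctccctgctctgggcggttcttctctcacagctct
The match starts 30 bases before the table's start of C1qb and, on the opposite strand, 193 bases before that of C1qc. GAGGAA occurred in 23.3% of all 32851 windows of that length, and in these windows of C1qb and C1qc but not of the other 4 members. The letters of a gamma-activated site, TTCNNNGAA, were found on neither strand of the 6 windows and occurred in 7.02% of all windows.

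C1qa, the A chain, was highest in unloaded AKR cells of experiment 1 and fell there to the lowest of the 4 groups after loading. It read 9.74, 9.43, 9.72 and 9.86 in DBA/2 loaded cells, 10.08, 9.94, 9.97 and 9.97 in DBA/2 unloaded cells, 9.32, 9.26, 9.36 and 9.28 in AKR loaded cells and 10.64, 10.77, 10.70 and 10.79 in AKR unloaded cells. No range of a group overlapped another. Loading lowered C1qa by 2.68-fold in AKR cells (-1.42 ± 0.075, adjusted p = 1.27e-13) and by 1.23-fold in DBA/2 cells (-0.30 ± 0.075, adjusted p = 0.00486), and the interaction was 1.12 ± 0.11 (adjusted p = 2.95e-08). The strain order turned with loading: C1qa was lower in DBA/2 cells without AcLDL (-0.74 ± 0.075, adjusted p = 2.06e-08) and higher in DBA/2 cells with it (0.38 ± 0.075, adjusted p = 0.000213). The call for loading in DBA/2 cells was lost (adjusted p of 0.0109 to 0.0274) without DBA/2 loaded replicate 2 or without DBA/2 unloaded replicate 1, 3 or 4, with no filter on dim probes (adjusted p = 0.0114) and when only the DBA/2 groups were fitted (adjusted p = 0.0178).

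C1qc, the C chain, followed the same order of groups. Its probe read 11.69, 11.37, 11.62 and 11.63 in DBA/2 loaded cells, 11.96, 11.78, 11.76 and 11.88 in DBA/2 unloaded cells, 11.28, 11.25, 11.42 and 11.28 in AKR loaded cells and 12.33, 12.37, 12.54 and 12.53 in AKR unloaded cells. Only the loaded groups of the strains overlapped. Loading lowered it by 2.197-fold in AKR cells (-1.14 ± 0.077, adjusted p = 1.19e-11), and in DBA/2 cells the difference of -0.27 ± 0.077 missed the threshold (adjusted p = 0.0132). Unloaded DBA/2 cells were 1.51-fold lower than AKR cells (-0.60 ± 0.077, adjusted p = 8.58e-07). In loaded cells C1qc was higher in DBA/2 (0.27 ± 0.077, adjusted p = 0.00695), a call lost (adjusted p of 0.0195 to 0.0303) without DBA/2 loaded replicate 1, 3 or 4 or AKR loaded replicate 1, 2 or 4. It was also lost with no filter on dim probes (adjusted p = 0.0157) and when only the loaded groups were fitted (adjusted p = 0.0107).

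C1qb, the B chain, was lower in DBA/2 than in AKR cells both without and with AcLDL. The values were 9.76, 9.72, 9.76 and 10.10 in DBA/2 loaded cells, 10.18, 9.85, 9.96 and 9.996 in DBA/2 unloaded cells, 10.19, 10.16, 10.11 and 10.26 in AKR loaded cells and 11.22, 11.28, 11.40 and 11.32 in AKR unloaded cells. Unloaded AKR cells lay apart from every other group, and the DBA/2 groups overlapped each other. C1qb was 2.48-fold lower in unloaded DBA/2 cells (-1.31 ± 0.082, adjusted p = 2.5e-12) and 1.27-fold lower in loaded DBA/2 cells (-0.34 ± 0.082, adjusted p = 0.00158). Loading lowered it by 2.18-fold in AKR cells (-1.12 ± 0.082, adjusted p = 5.06e-11), and the difference in DBA/2 cells was -0.16 (95% confidence interval -0.33 to 0.01, adjusted p = 0.183). Beside the fall of the chains in AKR cells, 4 of the 6 macrophage markers were called lower and 1 higher with loading of AKR cells (15% of all probes each). The part of this shift in the C1q values was not tested.

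In experiment 2 the C1q chains fell with loading in both strains once the doubted arrays were set aside. C1qa read 8.27, 8.26, 8.10 and 8.11 in DBA/2 loaded cells, 9.59, 9.38, 9.05 and 9.25 in DBA/2 unloaded cells, 7.74, 8.76, 7.51 and 7.30 in AKR loaded cells and 7.46, 8.92, 9.04 and 8.70 in AKR unloaded cells, replicates 1 to 4. The doubted arrays are the 8.76 and the 7.46, each inside the range of the other AKR group's remaining arrays. The DBA/2 groups did not overlap. C1qa was 2.19-fold lower in loaded DBA/2 cells (-1.13 ± 0.31, adjusted p = 0.0182 by the labels, and ± 0.12, adjusted p = 3.54e-06 without the doubted arrays, which feed the shared spread). In AKR cells the loading difference was -0.70 ± 0.31 by the labels (adjusted p = 0.36) and -1.37 ± 0.14 without the doubted arrays (adjusted p = 2.43e-06). The way these arrays were picked favours this direction of change, so the lower p-values are not independent support for the fall.

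C1qb of experiment 2 read 10.39, 10.30, 10.46 and 10.40 in DBA/2 loaded cells, 11.32, 10.89, 10.90 and 11.02 in DBA/2 unloaded cells, 9.69, 10.88, 9.93 and 9.75 in AKR loaded cells and 9.70, 10.82, 10.92 and 10.73 in AKR unloaded cells. C1qc read 11.71, 11.90, 11.93 and 11.61 in DBA/2 loaded cells, 12.46, 12.34, 12.11 and 12.28 in DBA/2 unloaded cells, 11.24, 12.09, 11.35 and 11.21 in AKR loaded cells and 11.09, 12.08, 12.09 and 12.05 in AKR unloaded cells. For both chains the DBA/2 groups lay apart, and the AKR groups overlapped through the doubted arrays alone. Without those, loading lowered C1qb in DBA/2 cells (-0.64 ± 0.10, adjusted p = 0.000157) and in AKR cells (-1.04 ± 0.12, adjusted p = 5.83e-06). It also lowered C1qc in DBA/2 cells (-0.51 ± 0.095, adjusted p = 0.000728) and in AKR cells (-0.80 ± 0.11, adjusted p = 3.85e-05). By the labels none of these was called, with adjusted p of 0.0958 in DBA/2 and 0.404 in AKR cells for C1qb, and 0.117 in DBA/2 and 0.449 in AKR cells for C1qc.

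The strain differences of experiment 2 did not repeat the lower levels of unloaded DBA/2 cells. Without the doubted arrays the unloaded difference was 0.43 ± 0.13 for C1qa (adjusted p = 0.0284), 0.21 ± 0.11 for C1qb (adjusted p = 0.202) and 0.22 ± 0.10 for C1qc (adjusted p = 0.142), where experiment 1 had negative values. By the labels it was larger, 0.79 ± 0.31 for C1qa (adjusted p = 0.0981), 0.49 ± 0.26 for C1qb (adjusted p = 0.227) and 0.47 ± 0.21 for C1qc (adjusted p = 0.162). Macrophage marker sums were higher in both DBA/2 groups of experiment 2 as well, and their part was not tested. Single markers did not all share this direction. By the labels, 0 of the 6 were called higher and 1 lower in unloaded DBA/2 cells (4.58% and 5.32% of all probes). In loaded DBA/2 cells 2 were called higher and 1 lower (6.04% of all probes each). In loaded cells without the doubted arrays all 3 chains were higher in DBA/2, by 0.66 ± 0.13 for C1qa (adjusted p = 0.00121), 0.60 ± 0.11 for C1qb (adjusted p = 0.00056) and 0.52 ± 0.10 for C1qc (adjusted p = 0.00108). By the labels the loaded differences were 0.35, 0.33 and 0.31, with adjusted p of 0.473, 0.419 and 0.345. The difference between experiments was not tested, since the tables were normalized apart.

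**Figure D2:**
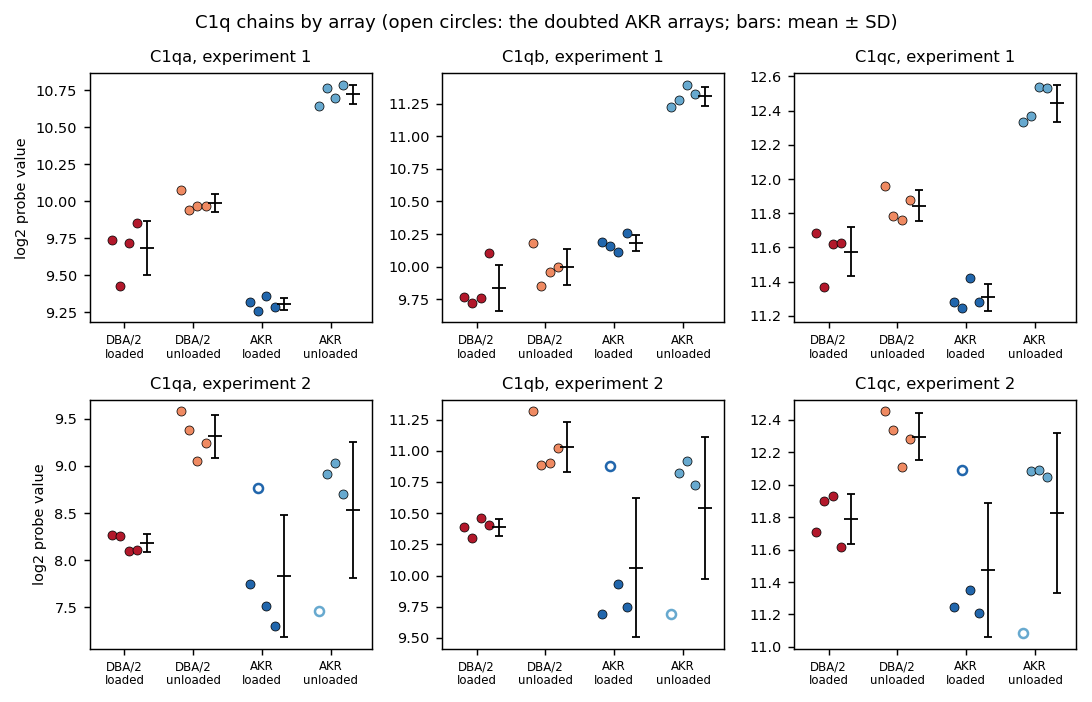
Log2 probe values (y axes) of C1qa, C1qb and C1qc on every array of experiment 1 (upper row) and experiment 2 (lower row), by group (x axes), with the mean and SD of 4 arrays as bars. Open circles are the doubted AKR arrays: in experiment 2 the one labelled loaded sits at 8.76, 10.88 and 12.09 and the one labelled unloaded at 7.46, 9.70 and 11.09, so that the AKR groups overlap only through them.

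The measured shifts of the chains differed in size, but the lowest adjusted p of the tests of such differences was 0.0686. In experiment 1 the strain difference of C1qb, taken array by array relative to C1qc, was 0.71 log2 more negative than that of C1qc in unloaded cells and 0.61 more negative in loaded cells (-0.71 and -0.61, exact permutation test, two-sided p = 0.0286 each, the smallest that 4 against 4 arrays allow, and 0.0686 after adjustment over 24 such tests). The groups of the strains did not overlap on this measure. In experiment 2 the same measure, from the same probes, differed by 0.02 in unloaded and 0.01 in loaded cells by the labels (exact permutation p = 0.857 and 1), and by -0.01 and 0.08 without the doubted arrays. C1qa fell by more than C1qc with loading of AKR cells in experiment 1 (-0.28, exact permutation p = 0.0286, adjusted p = 0.0686) and of DBA/2 cells in experiment 2 (-0.63, exact permutation p = 0.0286, adjusted p = 0.0686). For loading of DBA/2 cells in experiment 1 this difference was -0.03 (exact permutation p = 0.543, adjusted p = 0.686). For AKR cells in experiment 2 it was -0.35 by the labels (exact permutation p = 0.143, adjusted p = 0.264). The probe sequences were not used here, and a part of strain variants under a probe in these values was not tested.

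Cfb encodes factor B, the protease of the alternative pathway, and lies on chromosome 17 (chr17:34856374-34862514), 87 bases from C2. In experiment 1 it read 9.68, 9.71, 9.73 and 9.67 in DBA/2 loaded cells, 10.11, 9.92, 9.79 and 9.99 in DBA/2 unloaded cells, 9.95, 10.17, 9.70 and 9.98 in AKR loaded cells and 10.80, 10.79, 10.67 and 10.56 in AKR unloaded cells. Unloaded AKR cells again lay above every other group. Cfb was 1.69-fold lower in unloaded DBA/2 cells (-0.75 ± 0.085, adjusted p = 1.34e-07) and fell by the same amount with loading of AKR cells (-0.75 ± 0.085, adjusted p = 1.07e-07). With loading of DBA/2 cells the difference was -0.26 ± 0.085 (adjusted p = 0.0349), and the interaction was 0.50 ± 0.12 (adjusted p = 0.00358).

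In experiment 2 Cfb had the largest loading difference of the tested members in DBA/2 cells. It read 5.20, 5.27, 4.86 and 5.31 in DBA/2 loaded cells, 6.25, 6.996, 6.96 and 6.78 in DBA/2 unloaded cells, 4.94, 6.42, 5.47 and 5.31 in AKR loaded cells and 5.24, 6.20, 6.49 and 6.66 in AKR unloaded cells. The DBA/2 groups lay apart, and the AKR groups did so without the doubted arrays. Loading lowered it by 3.003-fold in DBA/2 cells (-1.59 ± 0.30, adjusted p = 0.00184 by the labels, and ± 0.17, adjusted p = 2.56e-06 without the doubted arrays). In AKR cells the difference was -0.61 ± 0.30 by the labels (adjusted p = 0.375) and -1.21 ± 0.19 without the doubted arrays (adjusted p = 0.000177). The interaction was -0.97 (95% confidence interval -1.87 to -0.07, adjusted p = 0.278) by the labels and -0.38 (-0.92 to 0.17, adjusted p = 0.408) without them.

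Cfp, properdin, was measured in experiment 1 only, and its probe values varied little. Its group means lay at percentiles 99.77 to 99.83 of all values of the table. Some arrays of the DBA/2 loaded and AKR unloaded groups read the same 13.5848. Equal values also occurred lower down, 13.5522 in the unloaded groups of both strains and 13.5281 in DBA/2 unloaded and AKR loaded cells. Whether signal this high in the table hides differences was not tested. Its values ran from 13.58 to 13.70 in DBA/2 loaded cells, 13.48 to 13.55 in DBA/2 unloaded cells, 13.46 to 13.53 in AKR loaded cells and 13.50 to 13.58 in AKR unloaded cells. No comparison of Cfp was called. The strain difference in loaded cells was 0.15 ± 0.058 (adjusted p = 0.0382), with groups that did not overlap, and it passed only with an offset of 50 added to the linear values (adjusted p = 0.00671).

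C5ar1 encodes the receptor for C5a, which draws myeloid cells to sites of complement activation. In experiment 1 it read 7.39, 7.29, 7.65 and 7.49 in DBA/2 loaded cells, 7.81, 7.89, 7.97 and 7.77 in DBA/2 unloaded cells, 7.49, 7.57, 7.68 and 7.45 in AKR loaded cells and 8.41, 8.34, 8.73 and 8.75 in AKR unloaded cells. The loaded groups overlapped each other, and each unloaded group lay above both. Loading lowered C5ar1 by 2.01-fold in AKR cells (-1.01 ± 0.092, adjusted p = 2.71e-09) and by 1.33-fold in DBA/2 cells (-0.41 ± 0.092, adjusted p = 0.00213), and the interaction was 0.60 ± 0.13 (adjusted p = 0.0013). The call in DBA/2 cells was lost without DBA/2 loaded replicate 2 (adjusted p = 0.0124) or DBA/2 unloaded replicate 3 (adjusted p = 0.0107). Unloaded DBA/2 cells were 1.62-fold lower than AKR cells (-0.70 ± 0.092, adjusted p = 1.29e-06), and loaded cells differed by -0.10 (95% confidence interval -0.29 to 0.09, adjusted p = 0.436).

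In experiment 2 C5ar1 ran from 6.27 to 6.45 in DBA/2 loaded cells, 6.23 to 6.93 in DBA/2 unloaded cells, 5.90 to 6.45 in AKR loaded cells and 5.74 to 6.75 in AKR unloaded cells, and all groups overlapped. No comparison was called. The loading difference in AKR cells was -0.18 ± 0.19 by the labels (adjusted p = 0.674). Without the doubted arrays it was -0.47 ± 0.15 (adjusted p = 0.032), with groups that did not overlap, and that in DBA/2 cells was -0.19 (95% confidence interval -0.47 to 0.09, adjusted p = 0.328).

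C3ar1, the receptor for C3a, was the member whose strain difference appeared with loading in experiment 1. It read 8.34, 8.61, 8.10 and 8.62 in DBA/2 loaded cells, 8.28, 8.33, 8.01 and 8.11 in DBA/2 unloaded cells, 8.06, 8.09, 7.83 and 7.996 in AKR loaded cells and 8.17, 8.501, 8.22 and 8.17 in AKR unloaded cells. Loaded AKR cells lay below both loaded DBA/2 and unloaded AKR cells without overlap. Loaded DBA/2 cells were 1.34-fold higher than loaded AKR cells (0.42 ± 0.10, adjusted p = 0.00178), while unloaded cells differed by -0.08 (95% confidence interval -0.30 to 0.13, adjusted p = 0.562). The interaction of 0.51 ± 0.15 missed the threshold (adjusted p = 0.012), and the loaded call was lost (adjusted p of 0.0102 to 0.0113) without DBA/2 loaded replicate 2 or 4 or AKR loaded replicate 3. In experiment 2 the same probe ran from 3.55 to 4.34 over all 16 arrays, its highest group mean of 4.20 was under the table's median, and it was not tested.

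Serping1 encodes the C1 inhibitor, which blocks the proteases bound to C1q. In experiment 1 its probe lay at 5.47 to 5.85 over all arrays, below the median of the table. In experiment 2 another probe read 5.41, 4.65, 5.18 and 5.71 in DBA/2 loaded cells, 6.01, 4.15, 4.27 and 4.98 in DBA/2 unloaded cells, 4.25, 4.24, 4.06 and 4.71 in AKR loaded cells and 4.75, 3.94, 3.96 and 4.27 in AKR unloaded cells. Both DBA/2 groups and the AKR loaded group (mean 4.32) passed the limit, and the DBA/2 arrays varied most. By the labels the strain difference was 0.92 ± 0.33 in loaded cells (adjusted p = 0.0578) and 0.62 ± 0.33 in unloaded cells (adjusted p = 0.23). Without the doubted arrays it was 0.90 ± 0.35 in loaded cells (adjusted p = 0.0662) and 0.80 ± 0.35 in unloaded cells (adjusted p = 0.121), and none was called.

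**Figure D3:**
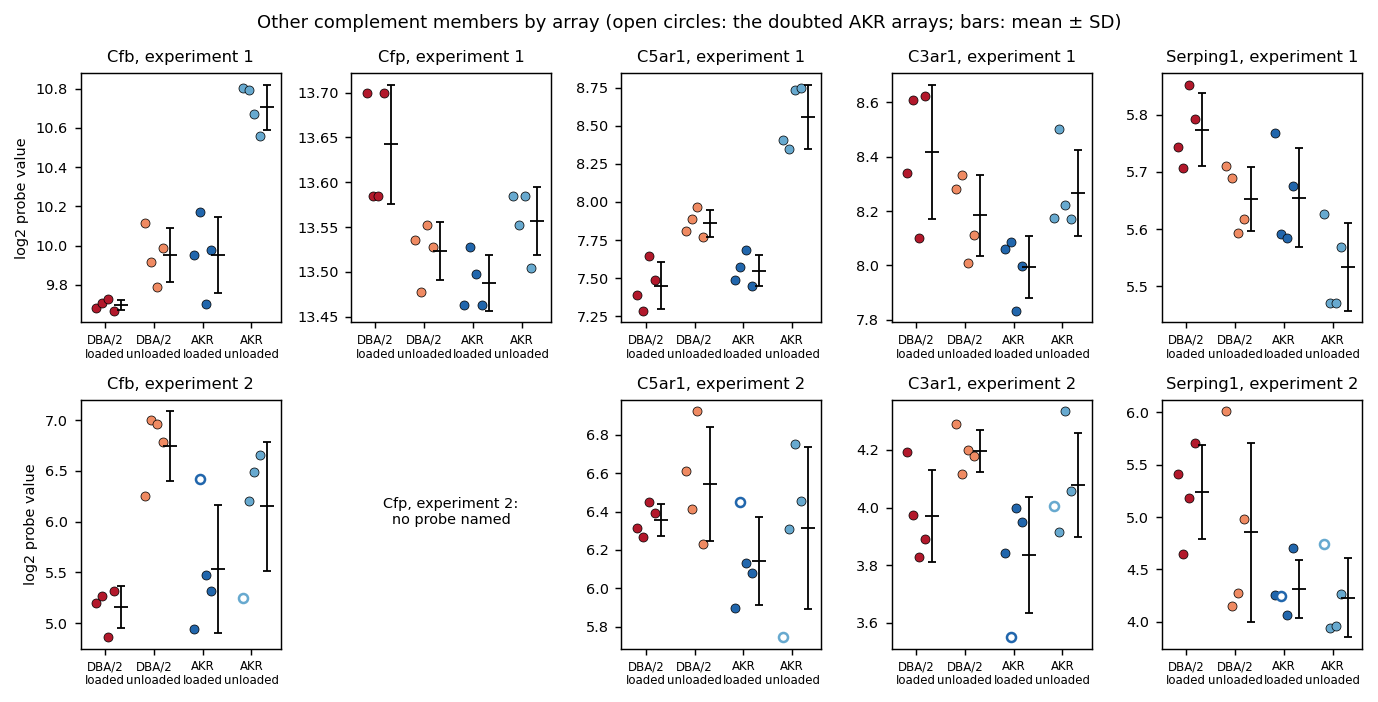
Log2 probe values (y axes) of Cfb, Cfp, C5ar1, C3ar1 and Serping1 on every array of experiment 1 (upper row) and experiment 2 (lower row), by group (x axes), with mean and SD of 4 arrays as bars and the doubted AKR arrays as open circles. Cfb of experiment 2 lies at 4.86 to 5.31 in loaded and 6.25 to 6.996 in unloaded DBA/2 cells, Cfp stays between 13.46 and 13.70, and Serping1 of experiment 1 stays under 5.98.

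The wider pathway was read from 46 other complement genes, of which 39 were named in each table and 20 and 22 tested in experiments 1 and 2. Counts are set beside the percent of all tested probes called in the same direction. In experiment 1, 1 was higher (13.4%) and 7 lower (14.8%) in unloaded DBA/2 cells, and 3 were higher (13.8%) and 5 lower (15%) in loaded DBA/2 cells. Loading raised 3 (15%) and lowered 5 (15%) in AKR cells, and raised 3 (5.74%) and lowered 1 (6.32%) in DBA/2 cells. The interaction was called positive for 3 (7.1%). By the labels of experiment 2, 1 was higher (4.58%) and 2 lower (5.32%) in unloaded DBA/2 cells, 3 were higher (6.04%) and 4 lower (6.04%) in loaded DBA/2 cells, and loading of DBA/2 cells raised 3 (4.01%) and lowered 1 (3.84%). Without the doubted arrays 24 were tested in experiment 2. Of these, 1 was higher (6.58%) and 3 lower (7.43%) in unloaded DBA/2 cells, and 7 were higher (9.23%) and 6 lower (9.96%) in loaded DBA/2 cells. Loading then raised 6 (9.22%) and lowered 4 (8.71%) in DBA/2 cells and raised 3 (9.19%) and lowered 4 (9.19%) in AKR cells, and the interaction was positive for 2 (2.73%) and negative for 1 (2.38%). Several of these counts lie near the share of all probes. Median differences of this list lay between -0.08 and 0.13 in all comparisons of both experiments by the labels, where the medians over all probes lay between -0.01 and 0.02.

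C2, which forms the classical pathway's C3-cleaving enzyme and neighbours Cfb, stayed below its AKR level in DBA/2 cells of either experiment. In experiment 1 the difference was -1.49 ± 0.083 in unloaded cells (5.95 ± 0.13 in DBA/2 and 7.44 ± 0.080 in AKR, SD, n = 4 each, adjusted p = 2.48e-13) and -1.19 ± 0.083 in loaded cells (adjusted p = 1.44e-11). In experiment 2 it was -1.62 ± 0.18 in unloaded cells (adjusted p = 6.33e-06) and -1.15 ± 0.18 in loaded cells (adjusted p = 0.000219), and -1.73 and -0.98 without the doubted arrays. The probe was tested through the AKR groups alone. Its DBA/2 means were at or below the table's median (5.94 in loaded and 5.95 in unloaded cells of experiment 1, 4.25 and 4.18 in experiment 2), where signal cannot be told from background, so these sizes are not exact. Its neighbour Cfb shared this strain direction in unloaded cells of experiment 1 but had a positive unloaded difference in experiment 2, 0.60 ± 0.30 by the labels (adjusted p = 0.208) and 0.30 ± 0.18 without the doubted arrays (adjusted p = 0.277). Colec12, a scavenger receptor with a collectin domain, showed the same direction. Its difference in experiment 1 was -0.73 ± 0.10 in unloaded (adjusted p = 2.92e-06) and -1.09 ± 0.10 in loaded cells (adjusted p = 2.93e-09). In experiment 2 it was -1.18 ± 0.13 in unloaded (adjusted p = 4.48e-06) and -0.92 ± 0.13 in loaded cells (adjusted p = 6.59e-05).

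Cd55, a membrane regulator that dissolves the C3-cleaving enzymes, was higher in unloaded DBA/2 than in unloaded AKR cells. The difference was 1.02 ± 0.089 in experiment 1 (adjusted p = 1.34e-09) and, by the labels, 2.70 ± 0.50 in experiment 2 (adjusted p = 0.000965). With loading of DBA/2 cells it changed by -0.38 ± 0.089 in experiment 1 (adjusted p = 0.00314) and by -2.35 ± 0.50 in experiment 2 (adjusted p = 0.00422). In AKR cells it fell by 1.45 log2 in experiment 1 (-1.45 ± 0.089, adjusted p = 2.1e-12), and the difference in experiment 2 was -1.01 ± 0.50 by the labels (adjusted p = 0.377) and -2.04 ± 0.28 without the doubted arrays (adjusted p = 3.99e-05). Cd59a, which keeps the membrane attack complex from forming, rose with loading of DBA/2 cells, by 0.53 ± 0.075 in experiment 1 (adjusted p = 1.22e-05) and by 0.72 ± 0.14 in experiment 2 (adjusted p = 0.00211). Its interaction in experiment 1 was 0.71 ± 0.11 (adjusted p = 2.16e-05).

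Lrp1, an endocytic receptor that can bind C1q, rose with loading of DBA/2 cells, by 0.74 ± 0.082 in experiment 1 (adjusted p = 3.91e-07) and by 0.98 ± 0.13 in experiment 2 (adjusted p = 9.74e-05). It also rose with loading of AKR cells in experiment 1 (0.99 ± 0.082, adjusted p = 5.53e-10). Its strain difference in loaded cells was called in both experiments but in opposite directions. Experiment 1 gave -0.75 ± 0.082 (adjusted p = 5.15e-08), whereas experiment 2 gave 0.59 ± 0.13 (adjusted p = 0.00338). Itgb2, the beta chain that complement receptor 3 shares with other integrins, was higher in loaded DBA/2 than in loaded AKR cells, by 0.37 ± 0.089 in experiment 1 (adjusted p = 0.00182) and by 0.68 ± 0.16 in experiment 2 (adjusted p = 0.0051). Itgam, the alpha chain of that receptor and also one of the macrophage markers, fell with loading of AKR cells in experiment 1 (-0.55 ± 0.080, adjusted p = 5.19e-06) and rose with loading of DBA/2 cells (0.48 ± 0.080, adjusted p = 8.22e-05), with an interaction of 1.03 ± 0.11 (adjusted p = 3e-07). In experiment 2 without the doubted arrays it fell in DBA/2 cells (-0.42 ± 0.082, adjusted p = 0.00103) and in AKR cells (-1.04 ± 0.095, adjusted p = 5.73e-07), and by the labels neither was called (adjusted p = 0.239 and 0.36).

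**Figure D4:**
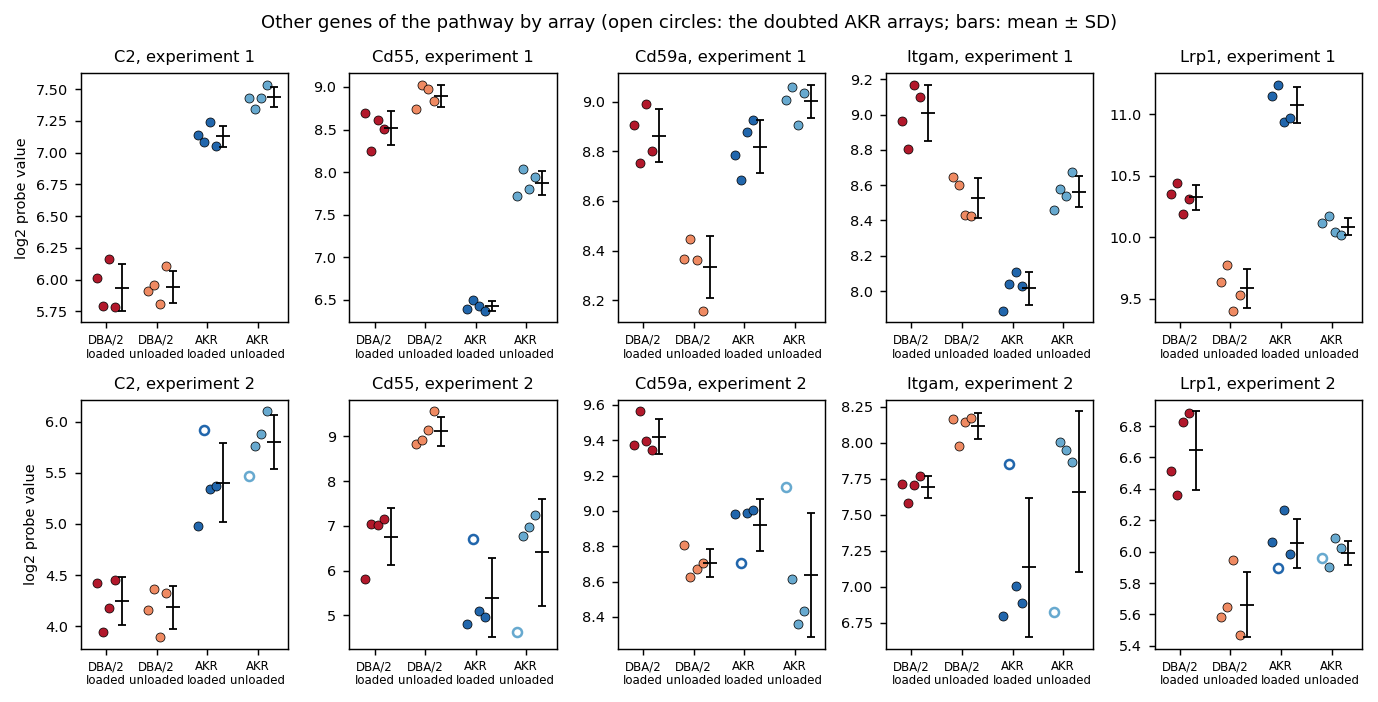
Log2 probe values (y axes) of C2, Cd55, Cd59a, Itgam and Lrp1 on every array of experiment 1 (upper row) and experiment 2 (lower row), by group (x axes), with mean and SD of 4 arrays as bars and the doubted AKR arrays as open circles. C2 sits lower in both DBA/2 groups than in both AKR groups in each experiment, and the loaded strain order of Lrp1 is opposite in the 2 experiments (differences of -0.75 and 0.59).

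Over 7173 genes with a tested probe in both experiments, likeness to a member was measured as the lower of its Pearson correlations over the 16 arrays of each experiment by the labels. The arrays share their groups, so a correlation describes a common pattern of group levels as well as spread within groups. C1qa and C1qc were most like each other (lower r of 0.960). Outside the complement members, the genes most like C1qa were Tor1aip1 (lower r of 0.959), Tmem176b (0.939) and Fgd2 (0.938), and those most like C1qc were Fgd2 (0.952), Ifi27l2a (0.933) and Arhgap4 (0.933). Outside the members C1qb was most like Pigz (0.922), Dmac1 (0.874) and Unc93b1 (0.874). Cfb had Oasl1 (0.931), Ccl12 (0.928) and Eif2ak2 (0.921) as the nearest non-members, and C5ar1 had Dck (0.839), Nrm (0.798) and Cttnbp2nl (0.796).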

How the data were processed

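Gene expression was measured on 32 Illumina arrays, MouseRef-8 v1 in experiment 1 and Ref-8 v2 in experiment 2, with 8 on a chip that the labels do not name. The authors deposited log2 values, made by quantile normalization and log2 transformation with lumi 2.6.0 (submitters' processing notes), for 24613 and 25697 probes. Probes over strain variants or without detection, which they left out, stayed in here. Probes were named from the platform annotation, 20984 and 23978 for a single gene, of which 20968 and 23962 matched the RefSeq table of GRCm38.p6 by gene ID. The 4 arrays per group limit the precision.

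limma 3.58.1 in R 4.3.3 was fitted to 13339 and 13732 probes (13911 without the doubted arrays), with eBayes at its defaults. It was checked on simulated data. Within-array chain differences had an exact permutation test. Members, gene lists and tests were chosen with earlier results of these data known. The other complement genes named were those called in both experiments for a comparison, and otherwise the 3 largest called differences. Alternatives changed the probe filter, an offset, centring, eBayes options, the groups fitted, a replicate block and single arrays. Motifs were searched with Python 3.11.15 in RefSeq promoter windows, and figures drawn with matplotlib 3.10.9. Macrophage, neutrophil and stromal marker lists were read as sums of linear values.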

Additional observations from a re-analysis of the deposited data

Results flagged for a closer look

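The loading response differed between strains, by the interaction in limma, for 5 of 7 members of experiment 1. The response of DBA/2 minus that of AKR cells was 1.12 for C1qa (-0.30 in DBA/2 and -1.42 in AKR), 0.97 for C1qb (-0.16 and -1.12), 0.87 for C1qc (-0.27 and -1.14), 0.60 for C5ar1 (-0.41 and -1.01) and 0.50 for Cfb (-0.26 and -0.75). In experiment 2 by the labels the interactions of these genes, in the same order, were -0.43, -0.16, -0.16, -0.01 and -0.97. Without the doubted arrays they were 0.23, 0.39, 0.30, 0.28 and -0.38. None of the experiment 2 interactions was called, and their sign for the C1q chains and C5ar1 depended on the doubted arrays. Single arrays far from the other 3 of their group, by Dixon's criterion, were found in 5 of 60 groups examined, where chance flags about 1 in 20. They were C1qb in DBA/2 loaded replicate 4 of experiment 1 (10.10, against 9.72 to 9.76), C3ar1 in AKR unloaded replicate 2 of experiment 1 (8.501, against 8.17 to 8.22), C1qb and C1qc in AKR unloaded replicate 1 of experiment 2 (9.70, against 10.73 to 10.92, and 11.09, against 12.05 to 12.09), and C1qc in AKR loaded replicate 2 of experiment 2 (12.09, against 11.21 to 11.35). The last 3 are on the doubted arrays.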

How the results depend on the processing

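The 65 single-gene differences were compared with an alternative 1507 times. The sign changed in 16 of these comparisons, in 0 with a call on either side, and 19 lost and 28 gained a call. For loading in DBA/2 cells of experiment 1, 2 members were called, against 1 with no filter on dim probes and 1 when only the groups compared were fitted, and 0 to 3 when single arrays were left out. The loaded strain difference of experiment 1 called 4, and 3 with no filter on dim probes, 3 with only the groups compared and 2 to 4 with single arrays left out. For loading in DBA/2 cells of experiment 2 the count was 1 by the labels, 4 with only the groups compared and 1 to 2 with single arrays left out, 2 without either doubted array. Without both doubted arrays it was 4, that for loading in AKR cells 4 and that for the loaded strain difference 3. The labels do not say whether replicate numbers pair the arrays, and the correlations of deviations do not settle it. They ran from 0.01 to 0.16 in experiment 1 (above 0.1 in 9 of 24 pairs) and from -0.30 to 0.52 in experiment 2 (12 of 24). In experiment 2 the values of 0.52, 0.50, -0.30 and -0.29 were those between the AKR groups, which hold the doubted arrays. The other pairs of experiment 2 ran from 0.01 to 0.17. With the number as a replicate block the counts were 5, 4, 6, 3 and 6 in experiment 1, for the unloaded and loaded strain difference, loading in AKR, loading in DBA/2 and the interaction. C3ar1 then passed for loading in AKR cells (-0.27, adjusted p = 0.0079) and the interaction (adjusted p = 0.00188), and C1qc for loading in DBA/2 cells (adjusted p = 0.00856). The share of all probes called with this block is not given here, so these counts cannot be set against it or read as particular to the members. Centring on the median moved arrays by 0, and averaging probes of a gene was not run because each member had 1 probe. With no detection values used here, low signal cannot be told from background for Serping1 or, in experiment 2, C3ar1.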

Other observations

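Fcna, ficolin A, a lectin that starts the complement cascade, falls outside the naming rule for the other complement genes and was picked after its values were seen. With loading of AKR cells it differed by -0.41 ± 0.098 log2 in experiment 1 (adjusted p = 0.00158) and by 1.26 ± 0.43 in experiment 2 by the labels (adjusted p = 0.36), or 2.24 ± 0.15 without the doubted arrays (adjusted p = 3.27e-08). In experiment 2 without those arrays it read 8.75 ± 0.15 in AKR loaded cells (SD, n = 3) and 6.51 ± 0.046 in AKR unloaded cells (SD, n = 3). Loaded DBA/2 cells of experiment 2 were lower than loaded AKR cells (-1.79 ± 0.43, adjusted p = 0.00692 by the labels).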
